A study of Mus musculus with 8 samples.

Results

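The genes described here are 10 genes that make, take up, break down or sense serotonin: the transporter gene *Slc6a4*, the synthesis genes *Tph1* and *Ddc*, the monoamine oxidase genes *Maoa* and *Maob*, and the receptor genes *Htr1b*, *Htr2a*, *Htr2b*, *Htr3a* and *Htr7*. They were listed by what their products do, with no threshold on any value, and are 10 of the 44674 genes in the deposited tables. Brown adipose tissue (BAT) of 8 male mice of the C57BL/6N strain was sequenced as poly-A selected mRNA. The 4 control mice were Ox1R fl/fl, Sert-Cre wt/wt littermates, and the 4 Ox1RΔSERT mice were Ox1R fl/fl, Sert-Cre tg/wt. All 8 mice thus carried the loxP-flanked allele of the orexin receptor gene *Hcrtr1* (Ox1R), and only the Ox1RΔSERT mice carried Cre, so that an effect of Cre itself cannot be told apart from that of the deletion. All were fed a high-fat diet (HFD) from week 4 to week 18 of age, and BAT was taken between 14 and 16 h at the end of a hyperinsulinemic-euglycemic clamp, in which insulin is infused and glucose is given to hold blood glucose steady. Cre was made under the control of *Slc6a4* regulatory sequence, and the study's reporter mice showed it to be active in raphe serotonergic neurons and in some other brain areas. BAT itself was not the intended site of the deletion, and *Hcrtr1* had 0 to 5 counts per library, which is too few to check the labels. The comparison of the 2 groups asks which BAT transcripts differ when serotonergic cells lack Ox1R, and here what the tissue's own serotonin genes do.

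Serotonin is made from tryptophan in a pair of steps, hydroxylation by a tryptophan hydroxylase (TPH1 outside the brain, TPH2 in neurons) and decarboxylation by the enzyme that *Ddc* encodes. It leaves the space between cells through the serotonin transporter SERT, the product of *Slc6a4*, is degraded on the outer mitochondrial membrane by the monoamine oxidases MAO-A and MAO-B, and acts on G-protein-coupled receptors and on a ligand-gated channel to which *Htr3a* contributes a subunit. In the periphery most serotonin comes from the gut and circulates in platelets, and serotonin of peripheral origin is known to restrain heat production in brown fat.

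Each gene is given as the estimated count of reads that the authors' quantification assigned to it, and as a normalized value, its CPM (the count scaled to a common library size) after TMM scaling. Libraries held 35852708 to 50063339 counts. A gene was called detected in a library above a floor of 3 counts, which corresponds to normalized values of 0.0592 to 0.0951. Ox1RΔSERT mice 11601 and 11708 stood apart from the other 6 libraries on the first principal component, which held 52.2% of the variance over all genes (61.6 and 80.5, against −47.5 to 8.62), so values are also given without them. In bulk tissue, fewer cells of a type and less RNA per cell cannot be told apart. Defining brown adipocyte markers were abundant in every library, and *Ucp1*, the uncoupling protein of brown fat, averaged 4266 ± 585 (SD, n = 4) in control and 2936 ± 615 (SD, n = 4) in Ox1RΔSERT mice as a normalized value. The *Ucp1* groups overlapped, and the Ox1RΔSERT mean was 3360 without mice 11601 and 11708. Neither of the tests described below called *Ucp1* (adjusted p = 0.316 with edgeR and 0.0884 with DESeq2).

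Only the pair of monoamine oxidase genes was abundant. Of the 10 genes, 4 (*Slc6a4*, *Tph1*, *Maoa* and *Maob*) exceeded the floor in all 8 mice, 5 did so in some mice, and *Htr3a* had 0 counts everywhere. Ranked by TPM (a share of all transcripts that accounts for their length), *Maob* came first with a mean of 22.9 over the 8 mice and a range of 18.9 to 29.7. *Maoa* followed with 2.75 (2.13 to 3.78). Neither range overlapped that of the next gene in the order. Below them *Tph1* had a mean TPM of 0.176, *Htr2a* 0.110, *Slc6a4* 0.105, *Htr2b* 0.102, *Htr7* 0.0573, *Ddc* 0.0475 and *Htr1b* 0.0137. The ranges of these 7 genes overlapped from each neighbour to the next, so their order is not resolved by these libraries. *Maob* alone held 81.1% to 90.8% of the TPM summed over the 10 genes, and *Maob* with *Maoa* held 94.7% to 99.0%.

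**Figure D1:**
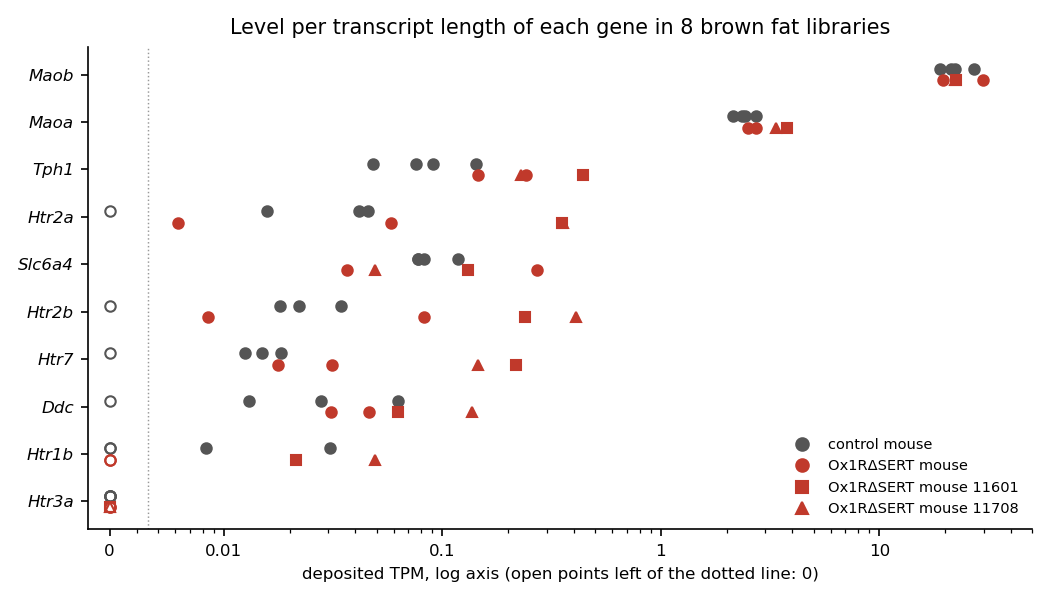
Deposited TPM of each of the 10 genes on a log axis, 1 point per mouse (grey, 4 control mice; red, 4 Ox1RΔSERT mice; squares and triangles, mice 11601 and 11708), with genes in order of their mean and open points for a TPM of 0. *Maob* (18.9 to 29.7) and *Maoa* (2.13 to 3.78) lie apart from each other and from the other 8 genes.

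No gene of the 10 passed the test between the groups. The fit across all genes (the quasi-likelihood test of edgeR, with p-values adjusted by Benjamini-Hochberg) tested 14489 genes and called 0 of them at an adjusted p under 0.05, which is 0% of the genes tested, while DESeq2 called 265 of 15119 (1.75%, and 1.54% with Ox1RΔSERT mice higher). The low-count filter kept 4 of the 10 genes, and neither tool called any of the 10. DESeq2 gave an adjusted p for only 5 of them. It gave none for *Ddc*, *Htr1b*, *Htr2b*, *Htr3a* and *Htr7*, so these could not be called. At an unadjusted p under 0.05, edgeR marked 2201 genes (15.2%), of the 10 only *Tph1*. At that threshold DESeq2, which tested 24200 genes, marked 4 of the 10 (*Tph1*, *Htr2a*, *Htr2b* and *Htr7*), all with Ox1RΔSERT mice higher, against 7.56% of its genes in that direction. The median log2 fold change of the 4 tested genes was −0.12, against 0.00 over all genes tested. The 6 genes that the filter removed (*Ddc*, *Htr1b*, *Htr2a*, *Htr2b*, *Htr3a* and *Htr7*) are described by their counts, with an exact permutation test of the normalized value where there were reads. That test covered 9 genes and can give no p below 0.0286 with 4 mice against 4. Nothing in the labels says that mice were handled in separate batches.

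Synthesis begins with tryptophan hydroxylase, and *Tph1* (ENSMUSG00000040046, GRCm38 chr7:46644641-46672537, minus strand) was the gene of the 10 with the clearest separation of the groups. It had 10, 4, 8 and 10 counts in control mice 10684, 11253, 11560 and 11563. In Ox1RΔSERT mice 11243, 11601, 11613 and 11708 it had 15, 35, 19 and 19 counts. Every Ox1RΔSERT mouse was above every control mouse, and mouse 11601 was the highest. As normalized values the means were 0.195 ± 0.0563 (SD, n = 4) in control and 0.459 ± 0.160 (SD, n = 4) in Ox1RΔSERT mice. The log2 fold change was 1.22 with a standard error of 0.35, and the difference did not pass the test (unadjusted p = 0.00704, adjusted p = 0.316 with edgeR and 0.189 with DESeq2). The exact permutation test, two-sided, gave p = 0.0286, the smallest it can give. Non-overlapping groups were found for 5.50% of all genes tested, for 2.69% with the Ox1RΔSERT mice higher and for 2.81% with them lower, so a gene of this kind is not rare in the table. The groups of *Tph1* also did not overlap on TPM, on library size alone, or without mice 11601 and 11708, when the Ox1RΔSERT mean was 0.377 and 4.95% of genes tested did the same.

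The bases before both annotated *Tph1* starts are shown because the gene-level counts cannot say from which start the reads came. Sequences here are from RefSeq on GRCm38.p6, are written 5′ to 3′ on the gene's strand, and end before the first annotated exon base. Capitals mark matches on either strand to 4 motifs, whose background is the share of 32851 windows of 250 bases before RefSeq starts that hold them. The GC box, written GGGCGG, was in 32.7% of the windows. The CCAAT box was in 33.8%. The core of the TATA box, searched as TATAAA, was in 12.4%. The half-site of the cyclic AMP response element, searched as TGACG, was in 17.8%. A match is a description of letters and not a site of binding.
Tph1 first start, chr7:46672538-46672787, minus strand: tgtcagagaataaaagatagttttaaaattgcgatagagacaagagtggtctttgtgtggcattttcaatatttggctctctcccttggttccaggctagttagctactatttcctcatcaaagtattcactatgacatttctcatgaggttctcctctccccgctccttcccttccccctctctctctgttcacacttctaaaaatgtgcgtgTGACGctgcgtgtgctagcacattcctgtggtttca
Tph1 second start, chr7:46667378-46667627, minus strand: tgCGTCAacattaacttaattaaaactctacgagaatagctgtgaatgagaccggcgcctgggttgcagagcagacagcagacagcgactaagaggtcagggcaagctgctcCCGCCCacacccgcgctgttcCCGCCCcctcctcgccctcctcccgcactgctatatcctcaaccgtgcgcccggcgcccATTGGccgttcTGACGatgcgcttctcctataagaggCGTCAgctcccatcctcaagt
The window of the first start held 43.6% G or C and 1 match to TGACG. The window of the second start held 58.8% G or C, 2 matches to GGGCGG, 1 to CCAAT and 3 to TGACG. Over all windows the median G or C content was 52.4%.

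*Ddc* (ENSMUSG00000020182, chr11:11814101-11898144, minus strand), which encodes aromatic L-amino acid decarboxylase, was near the floor. It had 1, 2, 0 and 1 counts in control mice 10684, 11253, 11560 and 11563 and 2, 5, 1 and 9 in Ox1RΔSERT mice 11243, 11601, 11613 and 11708. Only mice 11601 and 11708 exceeded 3 counts, and the groups overlapped (exact permutation p = 0.171, two-sided). Summed over the group, 4 counts stood against 17, of which 3 remained without mice 11601 and 11708. Genes of both steps of synthesis were thus above the floor together only in mice 11601 and 11708.

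The transporter gene *Slc6a4* (ENSMUSG00000020838, chr11:76998603-77032340, plus strand) is the gene whose regulatory sequence drives Cre in these mice. It had 10, 10, 12 and 19 counts in control mice 10684, 11253, 11560 and 11563. In Ox1RΔSERT mice 11243, 11601, 11613 and 11708 it had 6, 16, 21 and 6 counts. The Ox1RΔSERT mice lay on both sides of the control mice, with the highest and the 2 lowest values of the 8. The normalized means were 0.312 ± 0.0629 (SD, n = 4) in control and 0.260 ± 0.166 (SD, n = 4) in Ox1RΔSERT mice, a log2 fold change of −0.27 with a standard error of 0.46 (adjusted p = 0.795 with edgeR). The ratio of the summed counts, each per summed TMM-scaled library size, was 0.819, with an exact 95% interval of 0.542 to 1.24 that covers counting error only. On the log2(TPM + 0.1) scale the sign turned to 0.12, where the median of all genes stood at 0.32, so no direction is given for this gene. The 250 bases before its start are shown because this is the gene that lends the Cre its name.
Slc6a4, chr11:76998347-76998596, plus strand: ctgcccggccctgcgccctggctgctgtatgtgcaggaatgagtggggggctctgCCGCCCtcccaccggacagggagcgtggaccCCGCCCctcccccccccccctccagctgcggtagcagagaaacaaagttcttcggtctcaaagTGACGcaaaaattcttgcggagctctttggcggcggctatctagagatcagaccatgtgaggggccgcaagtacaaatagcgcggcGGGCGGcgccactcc
The window held 64.8% G or C, 3 matches to GGGCGG and 1 to TGACG.

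The cell bodies of serotonergic neurons lie in the brain stem, and markers of these neurons were looked up in BAT beside *Slc6a4*. *Fev*, a transcription factor that defines these neurons, had 0 counts in all 8 libraries. *Tph2*, the neuronal tryptophan hydroxylase, had 2 to 12 counts in control and 5 to 23 in Ox1RΔSERT mice (log2 fold change 0.53, standard error 0.51, adjusted p = 0.623 with edgeR). The 5 serotonergic markers together, *Slc6a4* included, summed to normalized values of 0.602 to 0.904 in control and 0.502 to 1.24 in Ox1RΔSERT mice.

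**Figure D2:**
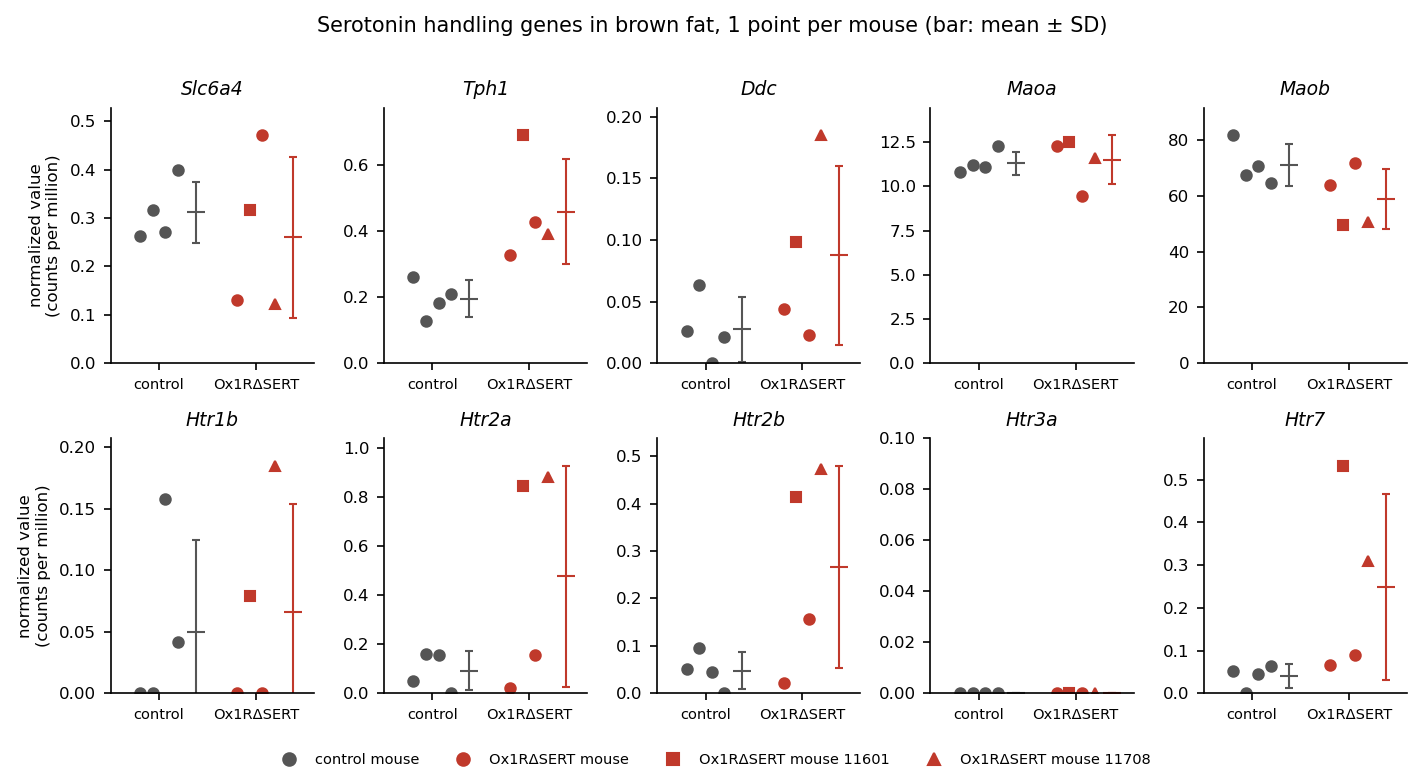
Normalized value (CPM after TMM scaling) of each of the 10 genes, 1 point per mouse, with the group mean and SD as a bar beside it that is clipped at 0; each panel has its own axis from 0. *Tph1* separates the groups, and *Htr2a*, *Htr2b* and *Htr7* are highest in Ox1RΔSERT mice 11601 (square) and 11708 (triangle).

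Breakdown was the best measured role. *Maoa* (ENSMUSG00000025037, chrX:16619698-16687818, plus strand) encodes MAO-A, the oxidase that prefers serotonin as a substrate. It had 413, 352, 492 and 586 counts in control mice 10684, 11253, 11560 and 11563 and 563, 633, 421 and 566 in Ox1RΔSERT mice 11243, 11601, 11613 and 11708. As normalized values these were 10.8 to 12.3 and 9.45 to 12.5, so the control range lay within that of the Ox1RΔSERT mice. Control mice averaged 11.3 ± 0.666 (SD, n = 4) and Ox1RΔSERT mice 11.5 ± 1.39 (SD, n = 4), and the log2 fold change was 0.02 with a standard error of 0.12 (adjusted p = 0.96 with edgeR). At this depth *Maoa* is the most precisely estimated of the 4 tested genes, and a difference beyond its error was not seen. On the log2(TPM + 0.1) scale its value was 0.34, where all genes shifted by a median of 0.32.

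*Maob* (ENSMUSG00000040147, chrX:16709282-16817366, minus strand), the neighbour of *Maoa* on the X chromosome, encodes MAO-B, which prefers phenylethylamine. It had 3128, 2127, 3134 and 3071 counts in control mice 10684, 11253, 11560 and 11563. In Ox1RΔSERT mice 11243, 11601, 11613 and 11708 it had 2935, 2510, 3200 and 2457 counts. The normalized means were 71.1 ± 7.55 (SD, n = 4) and 59.0 ± 10.8 (SD, n = 4), with mice 11601 (49.5) and 11708 (50.5) lowest and mouse 11613 (71.8) within the control range. The log2 fold change was −0.27 with a standard error of 0.14 and did not pass the test (unadjusted p = 0.0874, adjusted p = 0.374 with edgeR). Without mice 11601 and 11708 the Ox1RΔSERT mean was 68.0. On TPM the sign turned, to 0.07 on the log2(TPM + 0.1) scale with the same shift of 0.32, so the direction depends on the scaling. In mice 11601 and 11708 the summed brown adipocyte markers were also lowest of the 8, at normalized values of 9399 and 8712 against 11872 to 13960 in the other mice, and their part in the *Maob* values was not tested.

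The ratio of *Maob* to *Maoa* TPM, looked at after the values were seen, was 11.1, 8.89, 9.41 and 7.77 in control mice 10684, 11253, 11560 and 11563. It was 7.75, 5.96, 10.9 and 6.56 in Ox1RΔSERT mice 11243, 11601, 11613 and 11708. *Maob* thus exceeded *Maoa* in every library. The group means were 9.28 ± 1.36 (SD, n = 4) and 7.79 ± 2.19 (SD, n = 4), and the groups overlapped (exact permutation p = 0.286, two-sided). Across the 8 mice, the genes whose log2 normalized values ran most closely with *Maob* were *Coq9*, which serves coenzyme Q synthesis in mitochondria (Pearson's r = 0.991, Spearman's rho = 0.98), and *Oplah* (r = 0.986, rho = 0.93). Over the 6 mice without 11601 and 11708 their r was 0.96 and 0.94. For *Maoa* they were *Rap2c* (r = 0.956, rho = 0.90, and 0.98 over the 6 mice) and *Poglut1* (r = 0.946, rho = 0.86, and 0.95). These are descriptions over libraries that share the same scaling, picked as the highest of many genes.

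The receptor genes gave few reads, and 3 of the 5 were highest in the same 2 mice. *Htr2a* (ENSMUSG00000034997, chr14:74640840-74709494, plus strand) encodes the 2A receptor, which couples to Gq and is found on platelets and smooth muscle. It had 2, 5, 7 and 0 counts in control mice 10684, 11253, 11560 and 11563 and 1, 43, 7 and 43 in Ox1RΔSERT mice 11243, 11601, 11613 and 11708. Mice 11601 and 11708 stood far above the rest, while mice 11243 and 11613 lay within the control range. Summed counts were 14 in control and 94 in Ox1RΔSERT mice, a ratio of 5.72 per TMM-scaled library size (exact 95% interval 3.25 to 10.9, counting error only), but only 8 of the 94 remained without mice 11601 and 11708. The exact permutation test over mice gave p = 0.257, two-sided, and DESeq2 gave a log2 fold change of 2.37 with an adjusted p of 0.267.

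*Htr2b* (ENSMUSG00000026228, chr1:86099026-86111970, minus strand) encodes the 2B receptor, also coupled to Gq and known from heart valves and other mesenchymal cells. It had 2, 3, 2 and 0 counts in control mice 10684, 11253, 11560 and 11563. In Ox1RΔSERT mice 11243, 11601, 11613 and 11708 it had 1, 21, 7 and 23 counts. Mice 11601, 11613 and 11708 exceeded every control mouse and mouse 11243 did not, so the groups overlapped (exact permutation p = 0.114, two-sided). Summed counts were 7 and 52, a ratio of 6.33 (exact 95% interval 2.86 to 16.5, counting error only), of which 8 remained without mice 11601 and 11708. *Htr2b* shares 252 exon bases with *Psmd1*, a proteasome subunit gene on the opposite strand with a mean of 3446 counts. The libraries were stranded, but whether the quantification used the strand is not given in the sources used here, so reads of *Psmd1* within *Htr2b* cannot be told apart with certainty. *Psmd1* itself had normalized values of 73.7 to 87.2 in control and 73.4 to 78.5 in Ox1RΔSERT mice, and its part in the *Htr2b* counts was not tested.

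*Htr7* (ENSMUSG00000024798, chr19:35958734-36057507, minus strand) encodes a receptor that couples to Gs and raises cyclic AMP. It had 2, 0, 2 and 3 counts in control mice 10684, 11253, 11560 and 11563 and 3, 27, 4 and 15 in Ox1RΔSERT mice 11243, 11601, 11613 and 11708. As normalized values all 4 Ox1RΔSERT mice (0.0655, 0.533, 0.0898 and 0.309) were above the control mice, whose highest was 0.0631. The gap between the groups was thus a single mouse with 3 counts against another with 3 counts, at the floor, and on TPM and on library size alone the groups overlapped. The exact permutation test gave p = 0.0286, two-sided, the smallest it can give, on normalized values and 0.0571 on TPM. Summed counts were 7 and 49, a ratio of 5.97 (exact 95% interval 2.69 to 15.6, counting error only), and 7 remained without mice 11601 and 11708.

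*Htr1b* (ENSMUSG00000049511, chr9:81628291-81633828, minus strand), a receptor coupled to Gi, showed no such pattern. It had 0, 0, 7.09 and 2 counts in control mice 10684, 11253, 11560 and 11563 and 0, 4, 0 and 9.10 in Ox1RΔSERT mice 11243, 11601, 11613 and 11708. Counts that are not whole arise when the quantification divides a read among the transcripts it fits. *Htr1b* overlaps the antisense gene *D430036J16Rik* by 852 exon bases, but that gene had a mean of 0 counts. Where the other parts of the divided reads went was not examined. Both groups had mice at 0 and mice above the floor (exact permutation p = 0.829, two-sided). *Htr3a* (ENSMUSG00000032269, chr9:48899213-48911099, minus strand), a subunit of the serotonin-gated channel, had 0 counts in all 8 mice. The 95% Poisson interval of 0 counts reaches 3.69 counts per library. That is above the floor of 3 counts, which is a normalized value of 0.0592 to 0.0951.

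The bases before the starts of *Htr2a*, *Htr2b* and *Htr7* are shown because these 3 receptor genes were highest in the same 2 mice. Windows were cut where the mouse annotation already places an exon.
Htr2a, 216 bases, chr14:74640624-74640839, plus strand: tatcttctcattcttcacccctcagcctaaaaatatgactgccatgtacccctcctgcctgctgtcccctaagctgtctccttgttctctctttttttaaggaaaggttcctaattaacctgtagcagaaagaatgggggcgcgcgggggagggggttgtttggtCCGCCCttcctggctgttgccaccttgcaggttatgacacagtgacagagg
Htr2b, 250 bases, chr1:86111981-86112230, minus strand: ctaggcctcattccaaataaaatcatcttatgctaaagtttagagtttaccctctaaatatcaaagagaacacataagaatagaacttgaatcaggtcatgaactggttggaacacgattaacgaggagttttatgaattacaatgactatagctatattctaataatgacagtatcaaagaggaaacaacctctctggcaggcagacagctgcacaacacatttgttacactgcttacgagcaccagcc
Htr7, 103 bases, chr19:36057508-36057610, minus strand: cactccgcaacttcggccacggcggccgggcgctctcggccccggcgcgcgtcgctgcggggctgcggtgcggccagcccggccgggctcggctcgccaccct
Their G or C content was 51.4%, 37.6% and 82.5%, which spans the median of 52.4%. The *Htr2a* window held 1 match to GGGCGG, and the windows of *Htr2b* and *Htr7* held 0 matches to the 4 motifs, which says only that these letters are not in these windows.

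Mice 11601 and 11708 were the 2 highest of the 8 for 4 of the 10 genes (*Ddc*, *Htr2a*, *Htr2b* and *Htr7*), as they were for 20.1% of all genes tested. The low-count filter left these 4 genes out of those tested, so that share comes from genes with more reads. The 3 receptor genes together had 91 and 81 counts in mice 11601 and 11708, 5 and 18 in Ox1RΔSERT mice 11243 and 11613, and 3 to 11 in control mice. The same mice were highest for macrophage and fibroblast markers. The 8 macrophage markers summed to normalized values of 867 and 665 in mice 11601 and 11708, 175 and 191 in the other Ox1RΔSERT mice and 107 to 242 in control mice. All 8 had an unadjusted p under 0.05 in the higher direction (10.2% of genes tested had), none passed edgeR's adjustment, and DESeq2 called 4 (*Ptprc*, *Cd14*, *Mrc1* and *Trem2*). The 4 fibroblast markers summed to 1442 and 726, against 222 and 314 and against 141 to 304 in control mice, and DESeq2 called 1 of them, *Pdgfra*.

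Cells that carry or store serotonin were looked at in the same way. The 10 platelet and megakaryocyte markers summed to normalized values of 56.1 and 37.7 in mice 11601 and 11708, against 9.30 to 13.7 in the other 6 mice. *Pf4* (30.7 and 23.3), *Itgb3* (19.8 and 9.30) and *Ppbp* (1.56 and 1.58) were highest in these 2 mice as normalized values. Most of the 2 sums came from *Pf4* and *Itgb3*. *Gp1bb* was above every control mouse in each Ox1RΔSERT mouse (0.0660 ± 0.0450 in control and 0.212 ± 0.105 in Ox1RΔSERT mice, SD, n = 4 each). Such a gap was found for 2.69% of all genes tested, from which the low-count filter left out *Gp1bb*. The means of *Tubb1* (0.231 in control and 0.134 in Ox1RΔSERT mice), *Gp9* (0.0992 and 0.0587), *Gp5* (0.0866 and 0.0636) and *Treml1* (0.0687 and 0.0511) went the other way. *Gp6*, which defines platelets, was at or under the floor in all 8 mice. Of the 4 platelet markers tested, 1 (*Pf4*) had an unadjusted p under 0.05 (0.0210 with edgeR, log2 fold change 1.43), and edgeR called 0. The 10 mast cell markers summed to 17.8 to 36.1 in control and 20.6, 44.8, 27.2 and 33.8 in Ox1RΔSERT mice 11243, 11601, 11613 and 11708. Of the 9 mast cell markers tested edgeR called 0, and 2, *Fcer1a* and *Mrgprb1*, had an unadjusted p under 0.05. The log2 fold change of *Fcer1a* was 1.29 with a standard error of 0.48 (unadjusted p = 0.0253 with edgeR), and that of *Mrgprb1* was 1.02 with a standard error of 0.32 (unadjusted p = 0.0119 with edgeR). The groups of these 2 markers did not overlap, with Ox1RΔSERT mice higher, as for 2.69% of all genes tested. The groups of the other tested markers overlapped, among them *Cpa3*, *Cma1*, *Tpsb2*, *Kit* and *Hdc* with log2 fold changes of 0.35, 0.38, 0.48, −0.20 and 0.12. Skeletal muscle markers summed to 134 and 1729 in mice 11601 and 11708 and to 1179 in control mouse 11253. In the other mice they summed to 2.12 to 30.1. Markers of smooth muscle and pericytes, where *Htr2a* is known, summed to 238 to 406 in control and 255 to 381 in Ox1RΔSERT mice, and those of endothelium to 255 to 360 and 246 to 333. Among the markers of smooth muscle and pericytes, endothelium, skeletal muscle, erythrocytes and Schwann cells, 0 had an unadjusted p under 0.05 and edgeR called 0. What part any of these cells had in the values of *Tph1* or of the receptor genes was not tested.

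**Figure D3:**
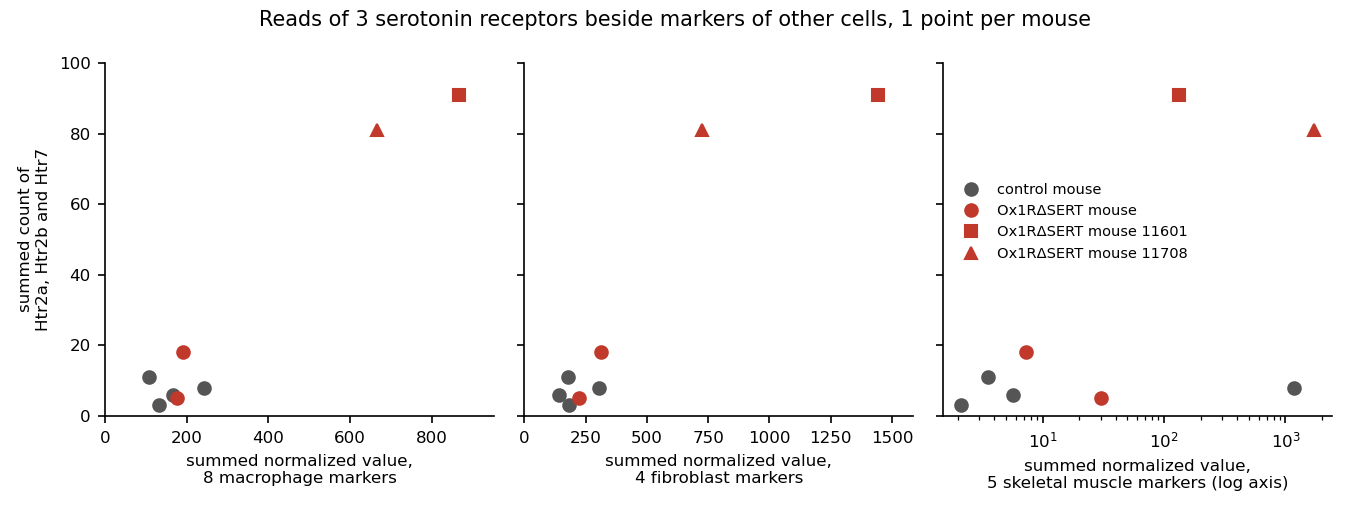
Summed count of *Htr2a*, *Htr2b* and *Htr7* against the summed normalized value of macrophage, fibroblast and skeletal muscle markers, 1 point per mouse (grey, control; red, Ox1RΔSERT). Mice 11601 (square, 91 counts) and 11708 (triangle, 81 counts) lie apart in both the receptor counts and the macrophage and fibroblast sums. The muscle sum is 134 in mouse 11601, 1729 in mouse 11708 and 1179 in control mouse 11253.

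Over 16 alternative fits, the log2 fold change of *Tph1* stayed above 0, from 0.21 on log2(TPM + 1), a scale that compresses low genes, to 1.45 with library size alone, and its adjusted p ranged from 0.122 to 0.996. Leaving out 1 mouse at a time gave 0.95 to 1.38 for *Tph1*, −0.71 to −0.03 for *Slc6a4*, −0.04 to 0.09 for *Maoa* and −0.38 to −0.19 for *Maob*. The lowest value of *Slc6a4*, −0.71, was that without Ox1RΔSERT mouse 11613, and the lowest of *Tph1*, 0.95, that without Ox1RΔSERT mouse 11601.

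**Figure D4:**
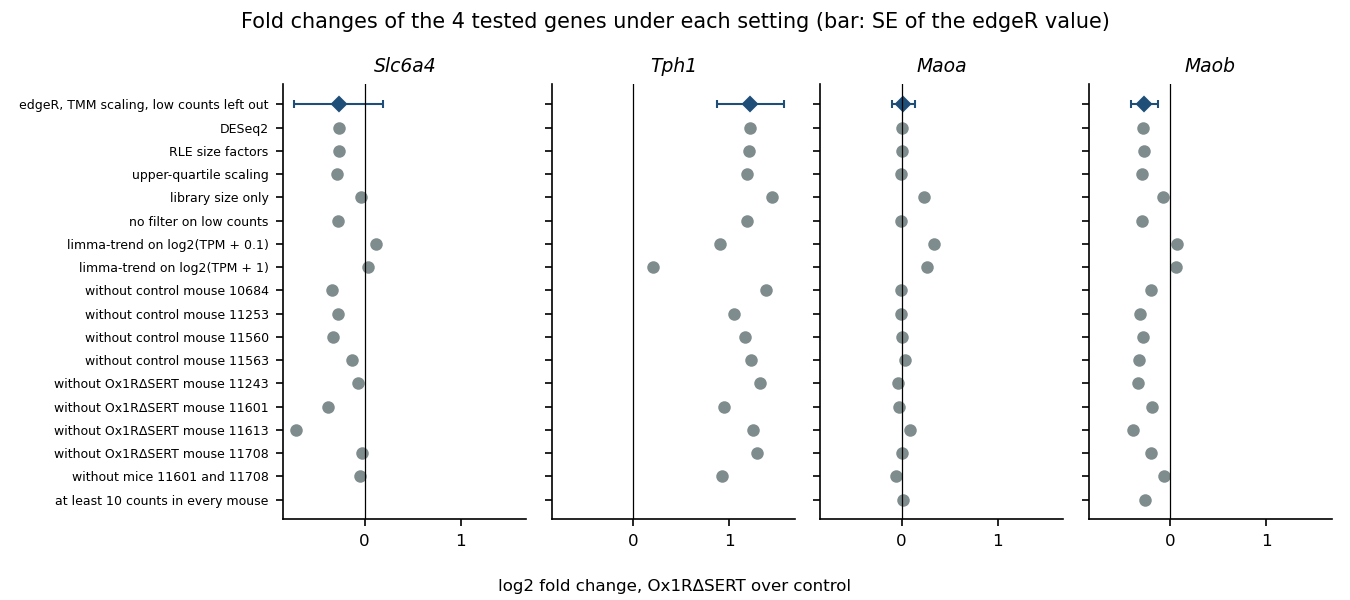
Log2 fold change (Ox1RΔSERT over control) of the 4 genes that passed the low-count filter, 1 row per setting; the diamond is the edgeR value with its standard error and the circles are alternatives. *Tph1* stays above 0 in every row, *Maoa* lies near 0 except on library size and TPM scales, and *Slc6a4* and *Maob* cross 0 on the TPM scales.

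Beyond the 10 genes, a list of 61 further genes of the serotonin and tryptophan pathways was examined, and edgeR called 0 of the 42 that were tested. At an unadjusted p under 0.05, 6 were higher and 3 lower, against 10.2% and 4.96% of all genes tested. DESeq2 called 2, *Kmo* and *Tgm1*, both higher. Without mice 11601 and 11708 it called neither, with log2 fold changes of 1.07 and 1.49 and an adjusted p of 1.000 for each. With 1 mouse left out, the adjusted p of DESeq2 ranged from 0.00237 to 0.331 for *Kmo* and from 0.000743 to 0.211 for *Tgm1*. The call was lost for both without control mouse 11560 or Ox1RΔSERT mouse 11601 or 11708, for *Kmo* without control mouse 10684 and for *Tgm1* without control mouse 11563. The 9 other serotonin receptor genes (*Htr1a*, *Htr1d*, *Htr1f*, *Htr2c*, *Htr3b*, *Htr4*, *Htr5a*, *Htr5b* and *Htr6*) were at or under the floor in every mouse, with 2 counts at most.

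Next to *Tph1* and *Ddc* in synthesis, 7 of 8 genes of tryptophan hydroxylation and its cofactor tetrahydrobiopterin were tested, with 0 at an unadjusted p under 0.05 and a median log2 fold change of −0.15. The cofactor genes *Pts* (40.3), *Qdpr* (49.4) and *Spr* (23.7) had mean TPM values far above that of *Tph1*. Among the 4 tryptophan transporter genes, *Slc7a5* had a log2 fold change of 1.52 (standard error 0.50), *Slc7a8* −0.80 (0.35) and *Slc16a10* −0.34 (0.13), each with an unadjusted p under 0.05 and none past the adjustment. The normalized mean of *Slc7a5* was 1.06 in control and 3.06 in Ox1RΔSERT mice, and 1.32 in Ox1RΔSERT mice without 11601 and 11708. For *Slc7a8* these means were 30.2, 17.4 and 20.3, and for *Slc16a10* 17.1, 13.5 and 13.5. *Slc7a5* and *Slc7a8* both form amino acid exchangers with the chain that *Slc3a2* encodes.

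In the kynurenine path, which takes tryptophan away from serotonin synthesis, *Kmo* (kynurenine monooxygenase) had 7, 9, 8.97 and 22 counts in control mice 10684, 11253, 11560 and 11563. In Ox1RΔSERT mice 11243, 11601, 11613 and 11708 it had 32.6, 69, 21 and 229 counts. As normalized values the groups did not overlap, as for 2.69% of all genes tested with Ox1RΔSERT mice higher, and mouse 11708 was the highest. The log2 fold change was 2.66 with a standard error of 0.75, which edgeR did not call and DESeq2 did (adjusted p = 0.0292). *Tdo2*, tryptophan dioxygenase, had 741 counts in mouse 11708 and 1 to 51 in the other 7 mice. Of the 6 tested genes of this path, 2 were higher at an unadjusted p under 0.05.

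Among genes of serotonin storage and of low-affinity uptake by organic cation transporters, *Slc22a3* was the most abundant (normalized 16.2 ± 6.09 in control and 21.1 ± 2.53 in Ox1RΔSERT mice, SD, n = 4 each), with a log2 fold change of 0.38 that did not pass the test. The vesicle transporter genes were low, with 8 to 28 counts of *Slc18a1* and 1 to 18 of *Slc18a2*. Downstream of the monoamine oxidases, *Aldh2*, which clears the aldehyde they form, had a mean TPM of 278 and a log2 fold change of −0.12 (standard error 0.16).

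Transglutaminases can couple serotonin to proteins. *Tgm2*, the abundant transglutaminase of many tissues, had normalized means of 146 ± 33.4 and 157 ± 26.2 (SD, n = 4 each) and a log2 fold change of 0.11 (standard error 0.19). *Tgm1* had 11, 7, 7 and 7 counts in control mice 10684, 11253, 11560 and 11563 and 21, 47, 30 and 74 in Ox1RΔSERT mice 11243, 11601, 11613 and 11708. The groups did not overlap, as for 2.69% of all genes tested with Ox1RΔSERT mice higher. The 2 Ox1RΔSERT mice other than 11601 and 11708 averaged 0.566 as a normalized value against 0.204 ± 0.0650 (SD, n = 4) in the controls. Its log2 fold change was 2.14 with a standard error of 0.43, called by DESeq2 (adjusted p = 0.0155) and not by edgeR. Among 12 genes of receptor partners, *Gnai2*, the Gi subunit to which receptors such as the *Htr1b* product couple, did not overlap either (normalized 55.8 ± 5.61 and 76.6 ± 11.6, SD, n = 4 each, log2 fold change 0.46), and *Ric3*, a chaperone of channels of the *Htr3a* kind, had a log2 fold change of −0.58 (standard error 0.16), neither past the adjustment.

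**Figure D5:**
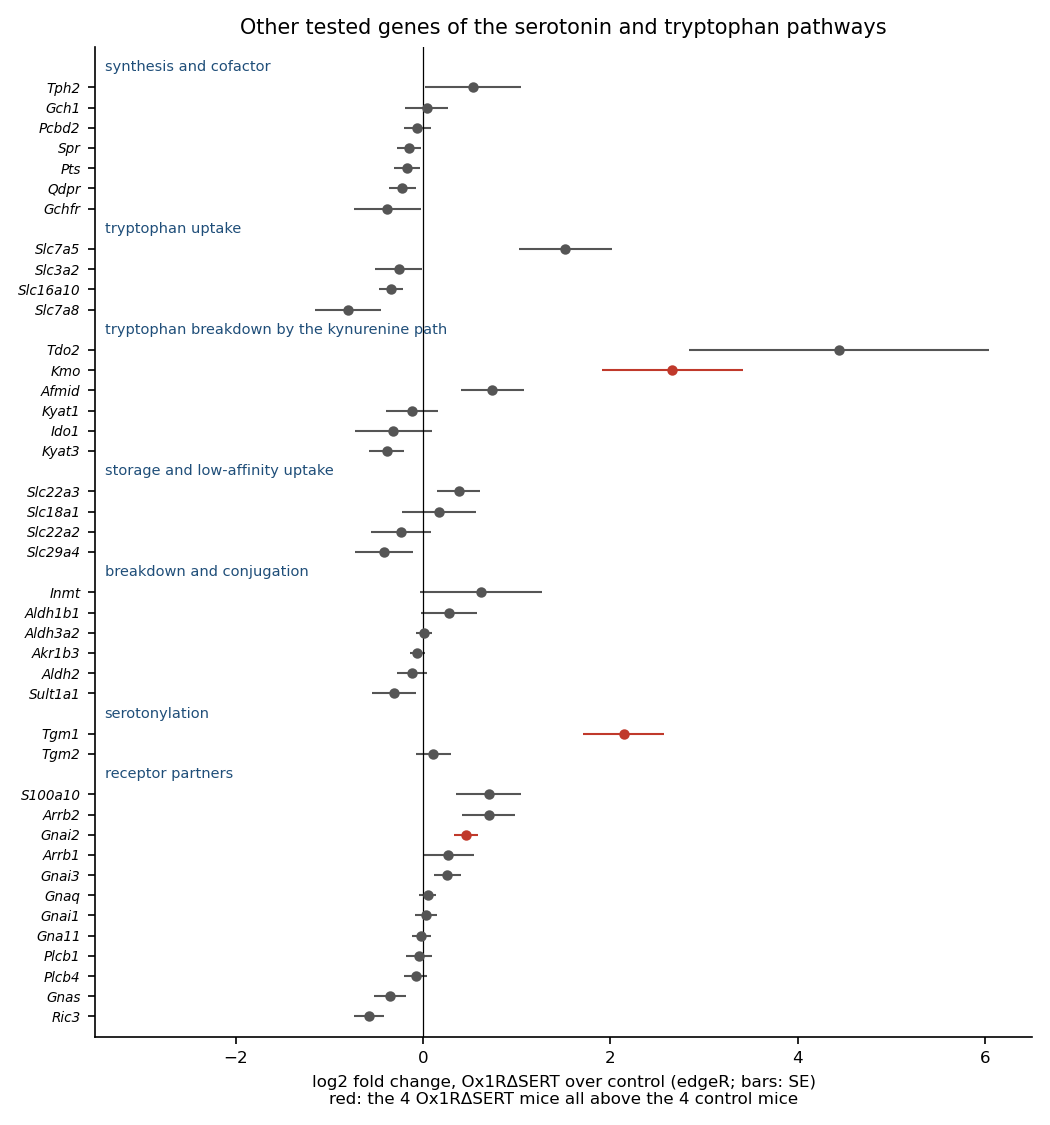
Log2 fold change (Ox1RΔSERT over control) with its standard error from edgeR for 41 of the 42 tested genes of the wider serotonin and tryptophan pathways, grouped by role. The 3 genes in red (*Kmo*, *Tgm1* and *Gnai2*) have all 4 Ox1RΔSERT mice above all 4 control mice, as had 2.69% of all genes tested, and 0 of the 42 passed edgeR's adjusted threshold.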

How the data were processed

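BAT mRNA of 4 control mice and 4 Ox1RΔSERT mice was quantified by the authors with Salmon 0.14.1 on GRCm38. The annotation release, read trimming and the use of strand are not given in the sources used here. Estimated counts per gene, without normalization, were deposited by the authors for each mouse. The authors also deposited TPM values, scaled for transcript length to the same sum in each mouse. The submitters' processing notes also name STAR and DESeq2 1.26.0.

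Symbols came from GENCODE M21 (GRCm38) and matched 44118 of 44674 identifiers (98.8%). Promoter sequences came from RefSeq (GRCm38.p6) and were found for 8 of the 10 genes, *Maob* and *Htr3a* having no entry. Estimated counts were rounded and tested with edgeR 4.0.16 (filterByExpr, TMM, quasi-likelihood test) in R 4.3.3, with all 8 libraries, no covariates and Benjamini-Hochberg adjustment over 14489 genes at a threshold of 0.05. The common dispersion was 0.0988. Exact permutation tests used all 70 assignments of mice. Poisson and binomial intervals and the floor of 3 counts cover counting error only.

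Alternatives were DESeq2 1.42.0, RLE, upper-quartile and library size scaling, other filters, limma 3.58.1 on log2 TPM, each mouse left out, and Ox1RΔSERT mice 11601 and 11708 left out together. DESeq2 with mice left out, and permutation on TPM or without mice 11601 and 11708, were added after the data had been seen. The edgeR fit was tested on counts simulated with the common dispersion for every gene, and the other steps were not tested in this way. All 10 genes are named. Of lists of pathway roles and cell markers, genes that a tool called, whose groups did not overlap, that were at or under the floor in every mouse, or that had the 2 highest mean TPM values of their role could be named, and the rest are counted. Genes named from these lists outside that rule were chosen after their values were seen. The members and lists were chosen with earlier results of these data known. A few genes of these lists are counted with their list and not reported here singly.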

Additional observations from a re-analysis of the deposited data

Results flagged for a closer look

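A gap test was run on the 4 values of each group for 59 genes, 114 groups in all, and asks whether the highest or lowest mouse lies farther from its nearest neighbour, relative to the group's range, than Dixon's 95% critical value. Of these groups, 8 passed. The rate of about 1 in 20 that chance would pass holds only for genes chosen without their values. Some of the genes, among them *Tdo2*, *Haao*, *Kynu* and *Ido2*, were named after their values were seen, so the number that passed is not compared with that rate. None belongs to the 10 serotonin handling genes. In 5 of the 8 the sample was Ox1RΔSERT mouse 11708, which had the highest normalized value of its group for *Tdo2* (15.2, gap 0.940 of the range), *Haao* (3.0, 0.869), *Kynu* (1.48, 0.961), *Ido2* (0.535, 0.916) and the cofactor gene *Pcbd1* (1.77, 0.951). The first 4 of these genes act in the kynurenine path. The platelet gene *Gp6* had 1 count in Ox1RΔSERT mouse 11243 (0.0218) and 0 in the other 3 mice. The remaining 2 groups were control mice, with the fibroblast gene *Pdgfra* highest in mouse 11253 (20.3, 0.847) and the mast cell gene *Kit* highest in mouse 10684 (14.3, 0.884).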

How the results depend on the processing

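No paired analysis was possible because the labels carry no replicate numbers: the numbers used here only follow the order of the samples, and nothing ties a control mouse to an Ox1RΔSERT mouse. Of all genes, edgeR called 0 (2201 at an unadjusted p under 0.05, of the 10 genes 1), DESeq2 called 265 and, without mice 11601 and 11708, 8. With 1 mouse left out the calls ranged from 0 to 1516 over both tools, and for the 10 genes from 0 to 1. That 1 call was *Htr2b*, with DESeq2 without mouse 11243 (adjusted p = 0.0390). The same fit called 1516 genes, against 265 with all 8 mice. Genes whose groups do not overlap numbered 2 of the 10, *Tph1* and *Htr7*. The low-count filter left out *Htr7*, so of the 4 genes tested the number was 1, against 5.50% of all genes tested. On TPM and on library size alone the number was 1 of the 10 each, and the share over all genes was not counted there. A floor of 10 counts left 2 genes above it in every mouse. The sign turned for *Slc6a4* on log2(TPM + 0.1) and log2(TPM + 1) (0.12 and 0.04), for *Maob* on the same scales (0.07 and 0.06), where all genes shifted by 0.32 and 0.23, and for *Maoa* with upper-quartile scaling (−0.0020), no filter (−0.01) and without mice 11601 and 11708 (−0.06), with −0.04 to 0.09 when 1 mouse was left out. The direction of the mean difference turned in permutation tests on TPM for *Slc6a4* (p = 0.714, exact) and *Maob* (exact p = 0.600), and without mice 11601 and 11708 for *Maoa* (exact p = 0.533), *Htr1b* (exact p = 0.800) and *Htr2a* (exact p = 0.933). Without these mice *Tph1* and *Htr7* gave an exact p of 0.133, the smallest that 4 mice against 2 allow. The cause was not tested. Counts under about 10 limit *Ddc* and the receptor genes to differences of several-fold.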

Other observations

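Leaving out a single Ox1RΔSERT mouse changed which genes separated the groups. Without mouse 11243, *Htr2b* joined *Tph1* and *Htr7* in having all remaining Ox1RΔSERT mice above the control mice. Without mouse 11613, all remaining Ox1RΔSERT mice were below the control mice for *Maob*. In both cases the mouse left out was the one whose value lay among those of the control mice. Groups separate more easily with fewer mice, and the share of all genes that did so without these mice was not counted. Whether these separations of *Htr2b* and *Maob* are unusual thus cannot be said. *Pcbd1*, a cofactor gene removed by the low-count filter, had 7, 5, 0 and 6 counts in control mice 10684, 11253, 11560 and 11563 and 11, 16, 11 and 86 in Ox1RΔSERT mice 11243, 11601, 11613 and 11708, so that its groups did not overlap as normalized values. Groups were apart in that direction for 2.69% of all genes tested, a set without *Pcbd1*. The kynurenine path genes *Kynu* and *Haao* had 72 and 146 counts in mouse 11708 and at most 4 and 21 in any other mouse.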
